A study of Homo sapiens with 15 samples.

Results

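The hypoxia-inducible factors (HIFs) and the proteins that tether them to oxygen were followed across xenograft tumors. These grew from cells transfected with MOAP-1 (modulator of apoptosis 1), its lysine mutants, RASSF1A, or an empty vector. The group was defined by gene name and not by a measured value, though it was chosen with earlier results of these data known. It held 8 genes, HIF1A, EPAS1, HIF3A, ARNT, ARNT2, VHL, HIF1AN, and EGLN2. Every probe whose RefSeq accession maps to one of these genes was taken, which gave 11 of the 34127 probes of the array. All 11 passed the filter on dim probes, and all 11 were well above background on each of the 15 arrays.

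HCT116 is a human colon cancer cell line. The cells were transfected with pCDNA3 constructs, grown as tumors in athymic nude mice, and the tumors were excised at day 35. The study describes these transfections as transient. How far the constructs were still expressed at excision was not tested here. Single-color Agilent arrays read 3 tumors, 1 per array, for each of 5 constructs. These were Myc-tagged wild-type MOAP-1, the empty vector, Myc-tagged MOAP-1 in which 1 of 2 lysines is replaced by arginine (K264R and K278R), and HA-tagged RASSF1A. All cells were pools of transfected cells rather than clones, every group carried the same plasmid backbone, and the mice supplied the stroma and vessels of the tumors. The arrays bear human probes, and how far mouse RNA binds them was not tested. Whether the 3 tumors of a construct came from separate transfections is not stated in the sources used here, so the p values measure the spread between tumors. The labels do not give the age of the mice.

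A HIF is a pair of a regulated alpha subunit (HIF-1 alpha, encoded by HIF1A, HIF-2 alpha, encoded by EPAS1, or HIF-3 alpha, encoded by HIF3A) and a stable beta subunit (ARNT or ARNT2). When oxygen is present, prolyl hydroxylases of the EGLN family mark the alpha subunit, the VHL protein binds the marked form, and a ubiquitin ligase built on CUL2 sends it to the proteasome. The asparaginyl hydroxylase HIF1AN, also called FIH, blocks the contact of the alpha subunit with the coactivators p300 and CBP. Much of this control acts on protein. The arrays measured RNA only. The pathway is known in solid tumors, where poorly perfused regions switch on genes of glycolysis and vessel growth.

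The upstream windows of 3 members are shown because their probes differed most between constructs. Each window holds the 250 bases before the first listed start in RefSeq (GRCh38.p14), on the strand of the gene. Capitals mark ACGTG or GCGTG on either strand, the core to which HIFs bind. HIF1A is at chr14:61695263-61695512 (plus strand), ARNT at chr1:150876600-150876849 (minus strand), and EGLN2 at chr19:40798941-40799190 (plus strand).
HIF1A: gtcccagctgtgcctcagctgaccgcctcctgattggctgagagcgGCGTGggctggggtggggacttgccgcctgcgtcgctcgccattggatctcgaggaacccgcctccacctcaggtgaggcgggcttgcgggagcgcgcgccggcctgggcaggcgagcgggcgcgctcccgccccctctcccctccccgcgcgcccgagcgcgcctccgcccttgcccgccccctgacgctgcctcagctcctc
ARNT: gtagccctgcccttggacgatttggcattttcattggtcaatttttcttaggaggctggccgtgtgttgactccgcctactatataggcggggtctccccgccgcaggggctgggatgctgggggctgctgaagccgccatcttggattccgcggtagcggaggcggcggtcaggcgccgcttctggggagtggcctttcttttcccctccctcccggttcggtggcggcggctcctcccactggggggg
EGLN2: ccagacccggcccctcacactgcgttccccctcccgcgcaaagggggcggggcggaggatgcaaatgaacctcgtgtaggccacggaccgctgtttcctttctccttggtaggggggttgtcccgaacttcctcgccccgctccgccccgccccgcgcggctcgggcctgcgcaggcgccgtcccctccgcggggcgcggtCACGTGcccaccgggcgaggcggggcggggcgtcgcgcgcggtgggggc
The HIF1A window held 1 core, 204 bases before the start, and the ARNT window held none. In the EGLN2 window the letters CACGTG give a match on each strand, and these matches overlap. Of 35116 promoter windows of this length, 43.2% held at least 1 such core, so a match is a common feature and only a description. EPAS1 held 1 core, the first start of HIF3A held 3, and HIF1AN held none. ARNT2 and VHL have no entry in the sequence table used.

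A level below is the log2 processed signal minus the 75th percentile of the same array, so that 0 is the level of a fairly bright spot. A change is the difference between the mean levels of 3 tumors each. A probe was called when its limma p, adjusted by the Benjamini-Hochberg method over 30570 kept probes, was below 0.05 and the change was at least 1.5-fold. The 75th percentile of the raw signal was 798 to 1023 on the MOAP-1 arrays, 630 to 768 on the vector arrays, 1171 to 1400 on the K264R arrays, 496 to 1152 on the K278R arrays, and 613 to 816 on the RASSF1A arrays. The vector tumors and RASSF1A tumor 3 shared 1 slide, while the MOAP-1 and K264R tumors were on other slides and the K278R tumors shared theirs with MOAP-1 tumor 2. For these constructs against vector, slide and construct cannot be told apart. The same holds for each of them against RASSF1A, with which they shared no slide. It also holds for K264R against MOAP-1 and K278R, since the K264R tumors had a slide of their own. Only RASSF1A tumors 1 and 2 passed through the scanner on a second day. The probe of MOAP1 was higher than in vector tumors by 0.86 in MOAP-1 (adjusted p = 0.000854), 0.55 in K264R (adjusted p = 0.00927), and 0.74 in K278R tumors (adjusted p = 0.00508). The RASSF1 probe differed by -0.12 between RASSF1A and vector tumors (adjusted p = 0.670). Whether either probe binds the introduced transcript is not known.

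**Figure D1:**
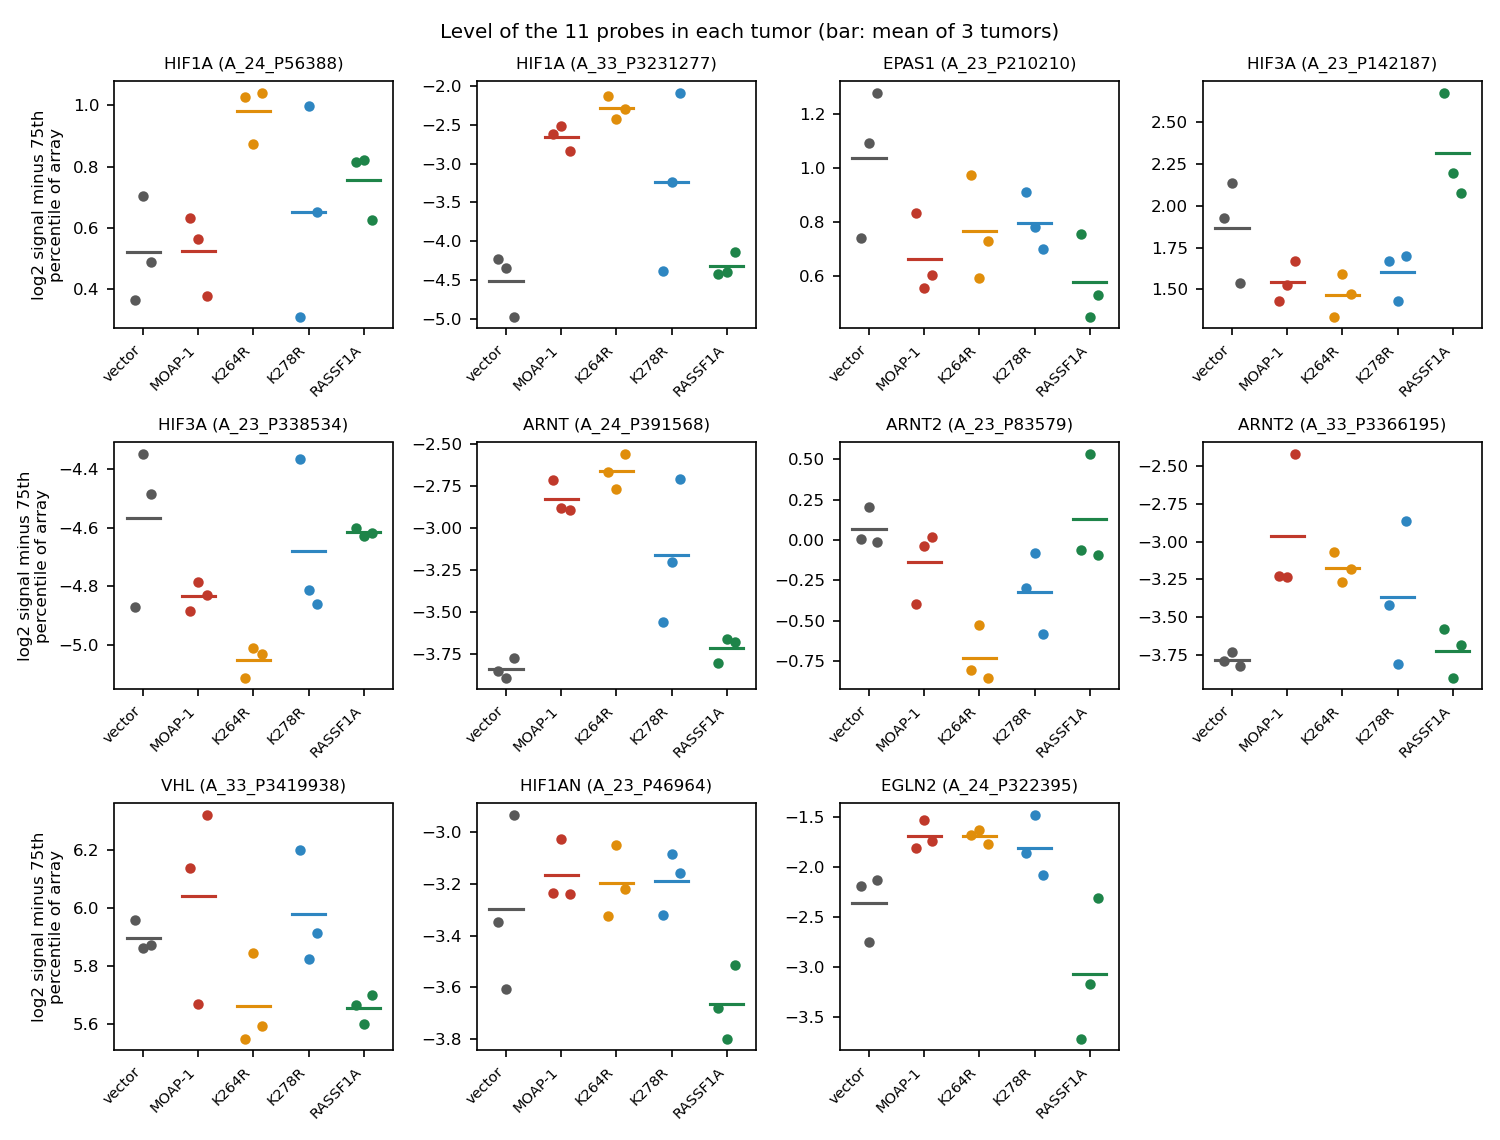
Level of each of the 11 probes in every tumor, with 1 panel per probe, the 5 constructs on the x axis, and log2 signal minus the 75th percentile of the array on the y axis (scales differ between panels). Points are single tumors in the order of their numbers and bars are means of 3 tumors. ARNT and the second HIF1A probe lay higher in all MOAP-1 and K264R tumors than in any vector or RASSF1A tumor, and K278R tumors spread between both.

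HIF1A encodes the alpha subunit of HIF-1, and its 2 probes did not move alike. The probe A_33_P3231277 was higher in MOAP-1, K264R, and K278R tumors than in vector tumors, whereas A_24_P56388 was not called in any comparison among the 5 constructs. The vector tumors had A_33_P3231277 levels of -4.22, -4.35, and -4.98. Tumors with MOAP-1 had levels of -2.61, -2.51, and -2.84, and each exceeded every vector tumor. This rise was 1.86 log2 units (adjusted p = 0.00438, standard error 0.40), a 3.63-fold difference. In the K264R tumors the level was -2.13, -2.42, and -2.30, again above every vector tumor, and the change was 2.23 (adjusted p = 0.00112). In the K278R tumors it was -4.39, -3.24, and -2.09. Tumor 1 lay inside the vector range and tumor 3 at the level of the K264R tumors. The K278R change of 1.28 passed narrowly (standard error 0.40, adjusted p = 0.0405). It no longer passed without K278R tumor 3 (0.70, adjusted p = 0.125), without K278R tumor 2 (adjusted p = 0.0728), or without any 1 vector tumor (adjusted p = 0.0568, 0.0893, and 0.117 without tumors 1, 2, and 3). In the RASSF1A tumors the level was -4.42, -4.40, and -4.13, and the change against vector was 0.20 (95% interval -0.67 to 1.07).

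The other HIF1A probe, A_24_P56388, is printed in 10 spots on every array. The SD of the log2 signal over these spots had a median of 0.080 (range 0.030 to 0.091). Vector tumors gave 0.37, 0.71, and 0.49. MOAP-1 tumors gave 0.63, 0.57, and 0.38. These groups overlapped, and the difference was 0.01 with a 95% interval from -0.33 to 0.34. The K264R tumors, at 1.03, 0.87, and 1.04, lay above every vector and MOAP-1 tumor. Their change against vector was 0.46 (adjusted p = 0.0331), which is below 1.5-fold. The K278R tumors, at 0.31, 1.00, and 0.65, and the RASSF1A tumors, at 0.82, 0.82, and 0.63, overlapped the vector tumors.

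The unequal change of the HIF1A probes was tested on their difference in each tumor, A_33_P3231277 minus A_24_P56388. The mean difference was -3.18 ± 0.09 in MOAP-1, -3.27 ± 0.09 in K264R, -3.89 ± 1.02 in K278R, -5.04 ± 0.44 in vector, and -5.07 ± 0.27 in RASSF1A tumors (SD, n = 3 each). It varied among constructs (exact permutation test of the spread of construct means over 1401400 regroupings, p = 0.00463, adjusted p = 0.0139 over the 3 genes with 2 probes). The files do not say which part of the transcript each probe binds, so whether transcript forms lie behind this split was not resolved. The test was made in the main processing only. A_33_P3231277 is dim, and its change depended on the background estimate, as given below. The part of background or array brightness in this split was not tested. The 5 named probes outside the group that followed A_33_P3231277 most closely over the 15 arrays were those of PIK3CB, PLRG1, PTP4A2, COP1, and NEK2, with Pearson r from 0.97 to 0.98. For A_24_P56388 they were SRBD1, PIGK, CDC27, G3BP1, and LBR, with r from 0.91 to 0.94. No gene was on both lists, and the arrays share constructs and slides, so these values only describe likeness.

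**Figure D2:**
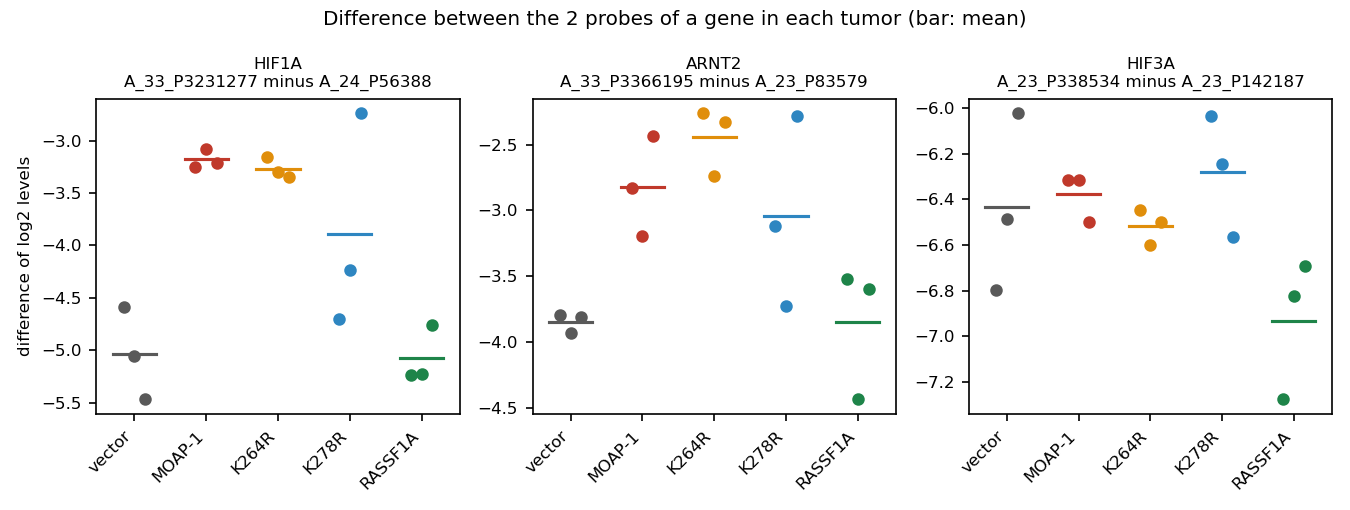
Difference of the log2 levels of the 2 probes of HIF1A, ARNT2, and HIF3A in each tumor (points) with the mean of 3 tumors (bars), by construct on the x axis. For HIF1A the MOAP-1 tumors sit near -3.18 and the vector tumors near -5.04, and ARNT2 shows the same order of these constructs.

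ARNT encodes the usual beta subunit of the HIFs and partners other bHLH-PAS factors as well. Its single probe, A_24_P391568, was higher in the MOAP-1, K264R, and K278R tumors than in the vector tumors. Vector tumors read -3.85, -3.89, and -3.77. MOAP-1 tumors read -2.71, -2.88, and -2.89, with no overlap, and the rise was 1.01 (standard error 0.16, adjusted p = 0.000743), or 2.02-fold. The K264R tumors, at -2.66, -2.77, and -2.56, changed by 1.18 (adjusted p = 0.000217). The K278R tumors, at -3.56, -3.20, and -2.71, all lay above the vector tumors and changed by 0.68 (adjusted p = 0.0127). Without K278R tumor 3 the change was 0.46, which is below 1.5-fold, and without vector tumor 2 its adjusted p was 0.0534. The RASSF1A tumors, at -3.80, -3.66, and -3.68, changed by 0.12 (95% interval -0.23 to 0.47). In the order of the construct means, K264R, MOAP-1, and K278R came first, and their neighbors did not differ past the test (adjusted p = 0.740 and 0.569). The step from K278R to RASSF1A had an adjusted p under 0.05 (0.56, adjusted p = 0.0207), but at 1.47-fold it was not called. It was the only step between neighbors with an adjusted p under 0.05 for any of the 11 probes.

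The probes of HIF1A and ARNT called here are dim, with median raw signals of 52.7 and 78.8. The normexp model, which estimates the background of each array in another way, turned the MOAP-1 change of A_33_P3231277 to -0.27 and that of ARNT to -0.49, while the median change of all probes moved to -0.53. With spots of extreme local background left out of that model, both changes were positive again. ARNT changed by 0.47 (adjusted p = 0.0171, below 1.5-fold), and A_33_P3231277 by 0.78 (adjusted p = 0.0315), which kept its call. The vector and RASSF1A arrays were also dimmer as a whole than the K264R arrays, as the raw percentiles above show. The part of array brightness in these results was not tested. Among all kept probes, 12.4% of the dimmest 10190 and 5.46% of the brightest 10190 were called higher in MOAP-1 than in vector tumors. Of the 11 probes, 5 were among the dimmest 10190, and these held all 3 called in that comparison.

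ARNT2 encodes a beta subunit best known from the nervous system, and its probes also differed. The probe A_33_P3366195 had levels of -3.79, -3.73, and -3.82 with the empty vector. With MOAP-1 its levels were -3.23, -3.24, and -2.42, above every vector tumor. The change was 0.82 (standard error 0.23, adjusted p = 0.0179), or 1.77-fold. It rested in part on MOAP-1 tumor 3, without which it was 0.55 (adjusted p = 0.0728). This probe is dim too, with a median raw signal of 84.7. Its change was -0.71 under normexp and 0.20 (adjusted p = 0.187) with the outlying spots left out, and the methods' t-test did not call it (adjusted p = 0.113). The K264R tumors lay between -3.27 and -3.07 and the K278R tumors between -3.81 and -2.86, with changes of 0.61 (adjusted p = 0.0573) and 0.42 (adjusted p = 0.210). The K264R change was called under 7 alternative settings, among them the slide as a random block (adjusted p = 0.0315), array weights (adjusted p = 0.0121), and the methods' t-test (adjusted p = 0.0178). The probe A_23_P83579 went the other way in K264R tumors. Vector tumors gave 0.01, 0.20, and -0.01. K264R tumors gave -0.80, -0.53, and -0.85 and did not overlap them. This fall was -0.79 (standard error 0.18, adjusted p = 0.00478). The MOAP-1 tumors, at -0.40, -0.04, and 0.02, gave -0.20 (adjusted p = 0.414). The difference between the ARNT2 probes varied among constructs (exact permutation test, p = 0.0132, adjusted p = 0.0198).

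EPAS1 encodes HIF-2 alpha, which is prominent in endothelium. It was not called in any comparison with vector. Vector tumors gave levels of 0.74, 1.09, and 1.28. MOAP-1 tumors gave 0.84, 0.56, and 0.60, and RASSF1A tumors gave 0.76, 0.45, and 0.53. Every construct mean was below that of vector, by 0.24 to 0.46, but vector tumor 1 lay within the range of each other construct. The difference between MOAP-1 and vector was -0.37 (95% interval -0.69 to -0.05, adjusted p = 0.0715).

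HIF3A encodes an alpha subunit with splice forms that can restrain the other HIFs. Its probe A_23_P142187 read 1.93, 2.14, and 1.54 with the empty vector and 1.43, 1.53, and 1.67 with MOAP-1, which overlapped. It read 2.67, 2.20, and 2.08 with RASSF1A. Those tumors lay above all MOAP-1, K264R, and K278R tumors. The MOAP-1 level was lower than the RASSF1A level by 1.71-fold (change -0.77, standard error 0.17, adjusted p = 0.00346). The probe A_23_P338534 read -4.87, -4.35, and -4.48 with the empty vector and -5.11, -5.01, and -5.03 with K264R, without overlap. That change of -0.49 (adjusted p = 0.0181) was below 1.5-fold, but was called without vector tumor 1 (-0.64, adjusted p = 0.00512). The probe difference of HIF3A did not pass its test (exact permutation test, p = 0.0709).

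EGLN2, one of the prolyl hydroxylases, was the member with the widest gap between MOAP-1 and RASSF1A tumors after HIF1A. MOAP-1 tumors had levels of -1.81, -1.53, and -1.74. RASSF1A tumors had levels of -3.72, -3.17, and -2.31. No RASSF1A tumor reached the MOAP-1 range, and the change was 1.37 (standard error 0.28, adjusted p = 0.00212), or 2.59-fold. The lowest RASSF1A tumors, 1 and 2, were those of the second scan day. With the scan day as a block the change was 0.62 (adjusted p = 0.170). The vector tumors, at -2.19, -2.75, and -2.13, lay below all MOAP-1 tumors, with a change of 0.66 (adjusted p = 0.0915), and RASSF1A tumor 3 lay among them. That change was called with the scan day as a block (adjusted p = 0.0234), with array weights (adjusted p = 0.0393), and in a fit of these 2 constructs alone (adjusted p = 0.0366). RASSF1A differed from vector by -0.71 (adjusted p = 0.368), and without RASSF1A tumor 3 by -1.09 (adjusted p = 0.0169). The latter fit leaves RASSF1A tumors 1 and 2, both on 1 slide and of the second scan day. Construct, slide, and scan day cannot be told apart there. It called 1413 of all kept probes, as against 0 with all tumors. K264R and K278R tumors changed against vector by 0.66 (adjusted p = 0.0849) and 0.55 (adjusted p = 0.178), and the same settings called the K264R change (adjusted p = 0.0202 to 0.0230). The other oxygen-sensing prolyl hydroxylases, EGLN1 and EGLN3, were not called. Their changes between MOAP-1 and vector tumors were -0.10 and 0.06, with 95% intervals from -0.42 to 0.21 and from -0.33 to 0.45.

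HIF1AN levels were -3.23, -3.02, and -3.24 with MOAP-1 and -3.35, -3.61, and -2.93 with the empty vector. These overlapped, and the difference was 0.13 (95% interval -0.20 to 0.46). Its mean was lowest with RASSF1A, where the tumors read -3.68, -3.80, and -3.52. The difference between MOAP-1 and RASSF1A was 0.50 (adjusted p = 0.0207), which is below 1.5-fold. VHL, the substrate receptor of the ligase, read 6.14, 5.67, and 6.32 with MOAP-1 and 5.96, 5.86, and 5.87 with the empty vector. The vector tumors lay within the MOAP-1 range, and the difference was 0.15 (95% interval -0.18 to 0.47). VHL was not called in any comparison of the limma model, but with quantile normalization it was called between MOAP-1 and RASSF1A tumors (0.68, adjusted p = 0.00422, beside 0.39 and adjusted p = 0.0612 without it). Its raw signal, from 28057 to 81908, was not saturated on any array.

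**Figure D3:**
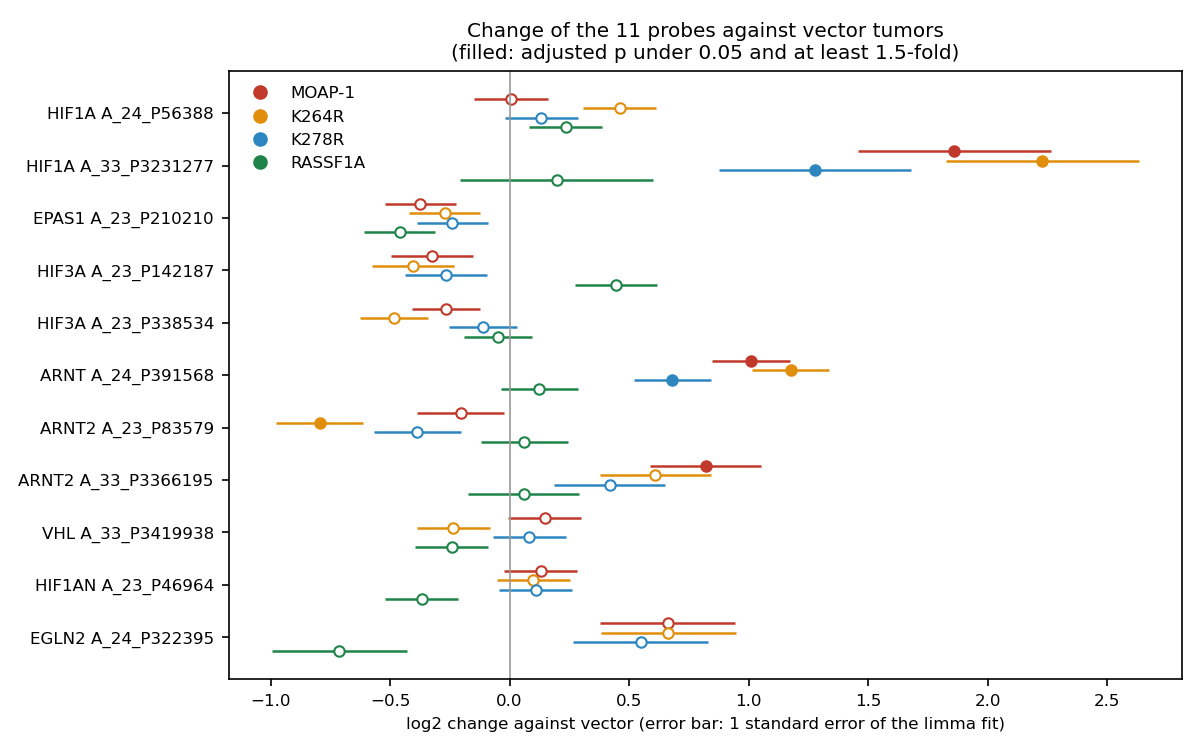
Log2 change of each of the 11 probes (y axis) against vector tumors on the x axis for MOAP-1, K264R, K278R, and RASSF1A, with bars of 1 standard error of the limma fit over 15 arrays. Filled points were called, which holds for 3 probes in MOAP-1, 3 in K264R, 2 in K278R, and none in RASSF1A tumors.

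In all, 3 of the 11 probes were called between MOAP-1 and vector tumors, all higher, beside 16.6% of all kept probes (9.87% higher and 6.7% lower). Between K264R and vector tumors 3 were called, 2 higher and 1 lower, beside 19.5% of kept probes (9.31% higher and 10.2% lower). Between K278R and vector tumors 2 were called, both higher, beside 10.9% (7.71% higher and 3.21% lower). These 3 comparisons share the vector tumors. None was called by limma between RASSF1A and vector tumors, where the share of all kept probes was 0%, although 4 of the 11 (EPAS1, HIF3A A_23_P142187, HIF1AN, and EGLN2) had an unadjusted p under 0.05, beside 12.1% of kept probes, and the methods' t-test called none. Over the 5 constructs together, 6 of the 11 passed the F test at an adjusted p under 0.05, beside 43.3% of kept probes. They were ARNT, HIF1A (A_33_P3231277), EGLN2, HIF3A (A_23_P142187), and both ARNT2 probes. Read against these shares, so few probes do not set the group apart from the rest of the array.

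The direct comparison of wild-type MOAP-1 with its mutants gave no call among the 11 probes by limma. Against K264R the share over all kept probes was 0.00327%, and 3 of the 11 (HIF1A A_24_P56388, ARNT2 A_23_P83579, and VHL) had an unadjusted p under 0.05, beside 10.7% of kept probes. Against K278R the share was 0%, and none of the 11 had an unadjusted p under 0.05, beside 9.22% of kept probes. The difference from K264R was -0.37 (95% interval -1.24 to 0.50) for HIF1A (A_33_P3231277) and -0.17 (-0.51 to 0.18) for ARNT. The difference from K278R was 0.58 (95% interval -0.29 to 1.45) and 0.33 (-0.02 to 0.68). These intervals still allow sizable differences, so the mutants are not shown to act like the wild type.

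Between MOAP-1 and RASSF1A tumors 5 of the 11 probes were called, beside 21.2% of kept probes (13% higher and 8.15% lower). HIF1A (A_33_P3231277) was higher in MOAP-1 tumors by 1.66 (adjusted p = 0.00583), ARNT by 0.89 (adjusted p = 0.000996), and ARNT2 (A_33_P3366195) by 0.76 (adjusted p = 0.0203). The ARNT2 call was lost without MOAP-1 tumor 3 (0.49, adjusted p = 0.0888) and without RASSF1A tumor 2 (0.67, adjusted p = 0.0753). EGLN2 was higher and HIF3A (A_23_P142187) lower, as given above. MOAP-1 and RASSF1A tumors shared no slide, so slide and construct cannot be told apart here. With the scan day as a block, which compares the MOAP-1 tumors with RASSF1A tumor 3, ARNT alone of the 11 remained called. Over all kept probes, the calls fell from 6475 to 3260 with this block. The change of HIF1A (A_33_P3231277) was then 1.48 and that of ARNT2 (A_33_P3366195) 0.72, close to those without the block but with larger standard errors (0.59 and 0.34). The changes of EGLN2 and HIF3A (A_23_P142187) shrank to 0.62 and -0.53. Set against the same RASSF1A tumors, so that these comparisons are not independent of that of MOAP-1, EGLN2 differed by 1.38 in K264R (adjusted p = 0.00189) and 1.26 in K278R tumors (adjusted p = 0.00508). HIF3A (A_23_P142187) differed by -0.85 (adjusted p = 0.00169) and -0.71 (adjusted p = 0.00750). With the scan day as a block none of these 4 was called (EGLN2 0.62 and 0.50, HIF3A -0.61 and -0.47). Against RASSF1A, 5 of the 11 probes were called in K264R tumors (3 higher, 2 lower) and 2 in K278R tumors (1 higher, 1 lower). The shares of all kept probes were 23.4% (12% higher and 11.3% lower) and 16% (3525 probes higher and 1361, or 4.45%, lower).

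Other genes of the pathway were counted at their brightest kept probe, beside 15% of all genes called between MOAP-1 and vector tumors. Of 7 hydroxylases and their regulators none was called by limma, and 1 of them, the transmembrane prolyl hydroxylase P4HTM, had an adjusted p under 0.05 (0.58, adjusted p = 0.0383, below 1.5-fold; named after its value was seen). Of 7 genes of the VHL ligase and its deubiquitinases 2 were higher and none lower. They were CUL2, the scaffold of the ligase (change 1.37, adjusted p = 0.000212), and VBP1, a prefoldin subunit that binds VHL (0.88, adjusted p = 0.0408). Of 7 coactivators, chaperones, and inhibitors 2 were higher and 1 lower. HSP90AB1, a chaperone of the alpha subunit, rose by 1.64 (adjusted p = 0.00258) and RACK1, which competes with that chaperone, by 0.99 (adjusted p = 0.00869). CITED4, which competes for p300 and CBP, fell by 0.67 (adjusted p = 0.00907). None of the 9 other bHLH-PAS factors kept was called.

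Between MOAP-1 and vector tumors 1 of the 29 kept HIF target genes was called, beside 15% of all genes (9.13% higher and 5.84% lower). It was LDHA, the lactate dehydrogenase A subunit, with a rise of 1.05 (adjusted p = 0.00204). The median change of the 29 was 0.12, beside 0.009 over all genes. Between RASSF1A and vector tumors none of the 29 was called, where the share of all genes was 0%. Their median change there was -0.28, beside 0.027 over all genes. Between MOAP-1 and RASSF1A tumors 10 of the 29 were higher and 1, VLDLR, lower, beside 19.9% of all genes called (12.4% higher and 7.44% lower), with a median of 0.33. The log2 changes of the 29 ran from -1.12 to 2.11. Among the higher, though not the largest, were LDHA, with a log2 change of 1.26, and VEGFA, the vessel growth factor. VEGFA had a 2.14-fold difference (adjusted p = 0.0103) and was named after its value was seen. With the scan day as a block, 2 of the 29, VEGFA and LDHA, were called, both higher, beside 9.78% of all genes, and the median was 0.32. Without RASSF1A tumor 2 the median was 0.17, with 7 higher and 1 lower beside 17.9% of all genes. The block and the removal of single tumors were chosen for this list after seeing the data.

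**Figure D4:**
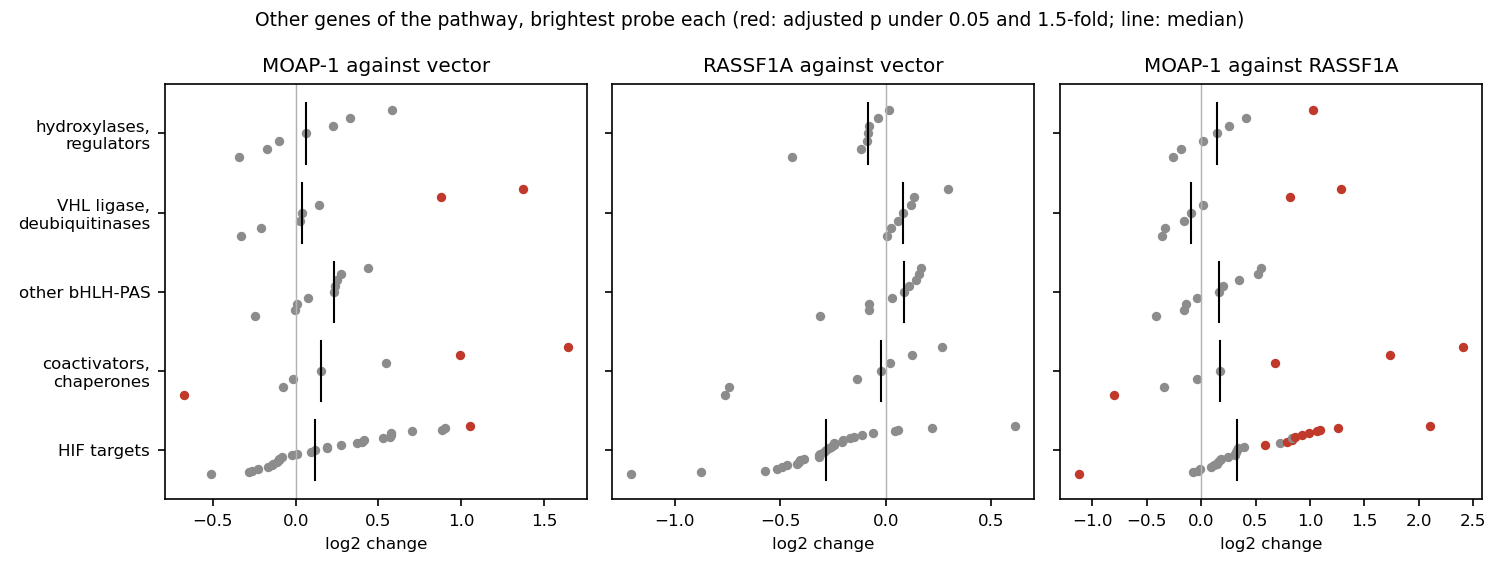
Log2 change (x axis) of single genes of 5 pathway lists (rows) for MOAP-1 against vector, RASSF1A against vector, and MOAP-1 against RASSF1A (panels, with different x scales). Red points were called and black lines are medians, with the 29 HIF targets at a median of 0.12 in the left panel, -0.28 in the middle one, and 0.33 in the right one.

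The tissue label was checked against marker genes. Each of 12 markers of colon epithelium and HCT116 exceeded background on every array, and none was called against vector. Their summed level was 8.09 to 8.29 in vector tumors and lower, without overlap, in the others (7.81 to 8.01 in MOAP-1, 7.68 to 7.85 in K264R, 7.53 to 8.04 in K278R, and 7.90 to 8.08 in RASSF1A). The summed levels of 9 fibroblast markers overlapped between MOAP-1 (3.17 to 5.74) and vector (2.95 to 5.01), with COL1A1 called higher and COL5A1 lower. Their median change against vector was 1.80 in MOAP-1, 0.44 in K264R, 1.70 in K278R, and 0.86 in RASSF1A tumors, while that of all genes in MOAP-1 tumors was 0.009. The sums of 9 endothelial markers were 1.90 to 2.11 and 1.84 to 1.90, and those of 7 leukocyte markers 3.29 to 3.70 and 3.23 to 3.30, with TIE1 and PTPRC called higher. For 5 erythroid markers the sums were 3.47 to 3.93 and 3.68 to 3.94, and 3.97 to 4.37 in RASSF1A tumors. In whole tumors, fewer cells of a type and less RNA per cell cannot be told apart. The part of tissue composition in the results above was not tested.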

How the data were processed

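RNA of 15 tumors was labeled with Cy3 and hybridized to single-color human arrays. The authors deposited, for each array, the processed signal of every spot, an intensity after background correction by Agilent Feature Extraction (10.5.1.1 per the file headers, 9.1 per the submitters' processing notes), not scaled between arrays. The design is annotated to hg19. A series-wide table, also deposited, gives GeneSpring log2 values, shifted to the 75th percentile per array and centered per probe. Of its columns, 8 follow the array of their label and 7 another array of the same construct, so it was used only as an alternative setting.

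For each array, the log2 value of the 75th percentile was subtracted from that of every non-control spot (43118 per array), spots marked as outliers were dropped, and replicate spots were averaged. A probe was kept if some construct had it well above background in each of its 3 tumors (30570 of 34127, and 28140 on all arrays). Gene symbols came from RefSeq (GRCh38.p14) through the accession of the probe (25422 probes, 74.5%). Between 85.1% and 93.1% of spots were well above background and none was saturated. The number of tumors limits the precision. A single model over the 15 arrays was used in limma 3.58.1 under R 4.3.3 (lmFit, eBayes, construct as the only term, 10 residual degrees of freedom). Intervals are 95% intervals of this fit. On simulated data for MOAP-1 against vector (30570 probes), 88 of 100 probes changed by 1 and 93 of 100 changed by -2 on the log2 scale were recovered, with 7 false calls. The simulated noise was independent between arrays, had no slide effect, and had its spreads shuffled over the probes. These rates therefore do not describe dim probes or slide differences in the real data. The members, lists, and tests were chosen with earlier results of these data known. Named were all probes of the members, EGLN1, EGLN3, up to 3 called genes of largest change per pathway list between MOAP-1 and vector, and the 5 probes most correlated with each HIF1A probe. Alternatives were quantile normalization, normexp (offset 50) with and without outlying spots, no filter or a filter on all arrays, the authors' table, array weights, blocks for scan day, slide, or replicate number, the 2 constructs alone, the methods' t-test, and leaving out each tumor. Pathway and marker genes without a kept probe were left out.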

Additional observations from a re-analysis of the deposited data

Results flagged for a closer look

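The effect of MOAP-1 and that of RASSF1A, each against vector, differed at 5 of the 11 probes by the direct test between these constructs (limma, adjusted p under 0.05 and at least 1.5-fold). The share of all kept probes was 21.2%. The difference was 1.66 for HIF1A (A_33_P3231277), 0.89 for ARNT, 0.76 for ARNT2 (A_33_P3366195), 1.37 for EGLN2, and -0.77 for HIF3A (A_23_P142187) on the log2 scale. All 3 MOAP-1 tumors lay on one side of all 3 RASSF1A tumors for each of them, but these probes were picked by that same test. The share of all kept probes without such overlap was not counted. The MOAP-1 and RASSF1A tumors shared no slide. RASSF1A tumors 1 and 2 belong to a second scan day, and with the scan day as a block ARNT alone of the 11 remained called. Over all kept probes, the calls fell from 6475 to 3260 with that block. HIF1A (A_33_P3231277) and ARNT2 (A_33_P3366195) then kept changes of 1.48 and 0.72 with larger standard errors, while EGLN2 and HIF3A (A_23_P142187) had 0.62 and -0.53. The array text of the study concerns the MOAP-1 and vector tumors. In the arrays of the mutants, 3 of the 11 probes were called in K264R and 2 in K278R tumors against vector, beside 19.5% and 10.9% of all kept probes.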

How the results depend on the processing

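Counts below are of the 11 probes called, with the values of the report at 3 for MOAP-1, 3 for K264R, 2 for K278R, and 0 for RASSF1A against vector, 5 for MOAP-1 against RASSF1A, and 6 by the F test. Under normexp they were 0 for MOAP-1, 0 for K264R, and 0 for K278R against vector, 1 for MOAP-1 against RASSF1A, and 0 by the F test. Over all probes, these counts fell from 5065, 5951, 3337, 6475, and 13230 to 522, 919, 1, 2256, and 2013. That model also reversed 5 changes against vector, to -0.49 for ARNT, -0.27 for HIF1A (A_33_P3231277), and -0.71 for ARNT2 (A_33_P3366195) in MOAP-1 tumors, and to -0.66 for ARNT and -0.55 for HIF1A (A_33_P3231277) in K278R tumors, while the median of all probes moved to -0.53 and -0.46. With its outlying spots left out, the counts were 1 for MOAP-1 and 0 for K278R against vector and 3 for MOAP-1 against RASSF1A, and the 3 for K264R against vector became 1 higher and 2 lower, as ARNT (0.49) lost its call and HIF3A (A_23_P338534, -0.80) gained one. Over all probes these counts were 2765, 1300, 3805, and 8958. The median change of all probes between K264R and vector tumors was then -0.28. For K278R against vector, quantile normalization, the fit of the 2 constructs alone, and the methods' t-test gave 0, and no filter on dim probes and array weights gave 1. Over all probes these settings called 2662, 1164, 0, 3268, and 3458. For K264R against vector, array weights and the fit of the 2 constructs alone gave 5, beside 6949 and 6130 of all probes. Array weights gave 1 for MOAP-1 against K264R and 10 by the F test. Over all probes they gave 1811 and 22254, as against 1 and 13230 in the report. With the scan day as a block the F test gave 3 and MOAP-1 against RASSF1A gave 1, as against 2 by the methods' t-test. Quantile normalization kept 5 for MOAP-1 against RASSF1A, with VHL in place of ARNT2 (A_33_P3366195). EGLN2 brought MOAP-1 against vector to 4 with the scan day as a block, array weights, or the 2 constructs alone. Leaving out 1 tumor gave 0 to 2 for K278R and 0 to 1 for RASSF1A against vector, beside 1682 to 3922 and 0 to 1413 of all probes. The cause of these shifts was not tested.

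Over all kept probes, MOAP-1 against vector had 5065 calls, 522 under normexp, 2765 without its outlying spots, and 2640 by the methods' t-test. The F test had 13230 calls, and 9344 with the scan day as a block. MOAP-1 against RASSF1A had 6475, 3260 with the scan day as a block, and 4197 by the methods' t-test. Samples of the same number were not shown to be paired (correlation of their deviations from -0.25 to 0.37), and a replicate block gave 3 for MOAP-1, 4 for K264R, and 1 for K278R against vector, where HIF1A (A_33_P3231277) had an adjusted p of 0.0503. In dim probes, the background estimate limits what the signals can show.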
